A study of Mus musculus with 4 samples.

Results

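Homeostatic astrocyte genes, 10 in number, were followed in spinal cord cell preparations of mice with EAE, experimental autoimmune encephalomyelitis, in which the immune system attacks myelin and which serves to model multiple sclerosis. The members were taken by symbol from the deposited table of 32246 genes, and all 10 were found once each and passed the filter on low values. They are the glutamate transporter genes Slc1a2 and Slc1a3, the water channel gene Aqp4, the sodium pump subunit gene Atp1b2, the connexin genes Gja1 and Gjb6, the folate enzyme gene Aldh1l1, the angiotensinogen gene Agt, and the regulators Sox9 and Fgfr3. The mice were C57BL/6 with EAE in both groups, and RNA was taken from mononuclear cells of the spinal cord isolated on a Percoll gradient. One group received Scramble microPEP(Scr) and the other microPEP155(P155), each from day 8 after immunization on alternate days. There were 2 libraries per group, numbered 4 and 5, and the labels give neither the animals per library nor pooling, sex or age. Whether each library is a separate animal is not stated, so the p-values cover only the spread among these 4 libraries, and that spread may be technical. Where 4 levels are listed for a gene, replicate 4 comes before replicate 5 in each group.

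Astrocytes take up glutamate released at synapses, buffer potassium, move water across their perivascular endfeet and are joined to each other through gap junctions. In EAE, as in other injuries of the spinal cord, astrocytes become reactive, with more intermediate filament and secreted acute phase proteins, and genes of their resting functions are used to follow that change. The members below are ordered by function: transport, water and ions, coupling, metabolism and secretion, then regulation.

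The Scr libraries held 63875412 and 64702948 reads and the P155 libraries 63862745 and 30777553. P155 replicate 5 was the shallowest, yet the members had between 1080 and 130304 reads in every library, so the sampling error of the counts was small for them. A level is given as log2(normalized reads + 1), where normalized reads are reads divided by the authors' size factor of the library. The labelled cell type was mononuclear cells, but astrocyte RNA was abundant in all libraries. Gfap, the astrocyte intermediate filament gene, ranked between 15 and 17 among all genes of a library by normalized reads, at levels of 17.57, 17.67, 17.72 and 17.54. The 10 members took 0.556% and 0.411% of reads under Scr, then 0.489% and 0.496% under P155. In such bulk samples, fewer astrocytes and less RNA per astrocyte cannot be told apart.

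The comparison of P155 with Scr asked whether the peptide went with a change in these transcripts. The members divided evenly, with 5 higher and 5 lower on average in P155, where 46.6% of the 27079 genes tested were higher and 53.4% lower. Their log2 differences, P155 minus Scr, ran from -0.70 for Gja1 to 0.39 for Fgfr3 with a median of -0.01, beside a median of -0.03 over all genes tested. The even split depended on the libraries: without Scr replicate 5, 8 members were lower and 2 higher, with a median of -0.11, and without Scr replicate 4, 3 were lower and 7 higher, with a median of 0.08. None of the 10 passed limma with Benjamini-Hochberg adjustment over all genes, where 0% of genes were called, and 0 members had an unadjusted p under 0.05, beside 4.35% of all genes. All members had a mean level of at least 10. Of the 8892 genes tested at such levels, 4780 were higher and 4112 lower, with a median log2 difference of 0.02. By limma, 129 of these were lower and 99 higher at an unadjusted p under 0.05. Limma-voom on the recovered reads also gave 0 members after adjustment and 0 at the unadjusted threshold. A missed threshold does not show that the groups act alike, so the interval of each difference matters. For 8 of the 10 members the 95% interval lay within 1 log2 unit of 0, and Gja1 and Fgfr3 were the exceptions. That share was not counted over all genes, so it marks nothing particular to these members. Both P155 libraries stood above both Scr libraries for 1 member, Aldh1l1, beside 15.2% of all genes tested. For 0 members did both P155 libraries stand below both Scr libraries, beside 19.6% of all genes tested. The authors' deposited table gave no member an FDR under 0.05, with values from 0.936 to 0.991, beside 0.53% of its genes called.

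**Figure D1:**
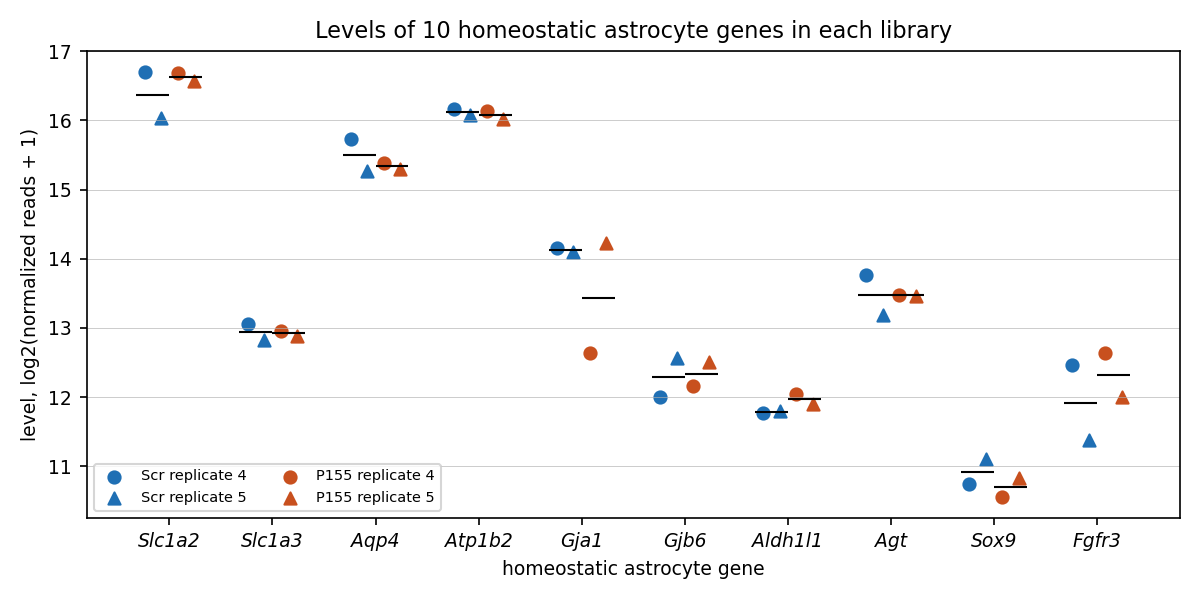
Level of each homeostatic astrocyte gene, as log2(normalized reads + 1), in Scr (blue) and P155 (orange) libraries numbered 4 (circles) and 5 (triangles), with a black line at the mean of each group of 2. The groups overlap for 9 of the 10 genes, Aldh1l1 being the exception, and Gja1 in P155 replicate 4 lies at 12.64, below the other libraries.

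Per kilobase of exon, levels of the members differed by more than an order of magnitude. Exon length was the union of a gene's exons in GENCODE M21. Atp1b2 stood highest, at a level of 17228 ± 795 normalized reads per kb (SD, n = 4 libraries), and Sox9 lowest, at 437 ± 69.9. Slc1a2 and Aqp4 followed at 7182 ± 1397 and 7081 ± 1103 normalized reads per kb. These 2 genes were not separated by their spread, with Slc1a2 above Aqp4 in 2 of 4 libraries. Agt was next at 6062 ± 996 normalized reads per kb, below Aqp4 in 4 of 4 libraries. Gjb6 at 1923 ± 360, Gja1 at 1492 ± 584, Slc1a3 at 916 ± 62.3, Aldh1l1 at 835 ± 71 and Fgfr3 at 656 ± 231 normalized reads per kb came after it. In that run the order of Gjb6 over Gja1, of Gja1 over Slc1a3, of Aldh1l1 over Fgfr3 and of Fgfr3 over Sox9 held in 3 of 4 libraries each.

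Glutamate uptake is carried by Slc1a2 (GLT-1), the main transporter of mature astrocytes, and Slc1a3 (GLAST), which is also strong in radial glia and Bergmann glia. Slc1a2 (ENSMUSG00000005089, chromosome 2, 102658659 to 102790784, plus strand, mm10) stood at 16.70 and 16.04 under Scr, then 16.69 and 16.57 under P155. Scr replicate 5 was the low library, and the other three lay within a narrow band, so that the groups overlapped. The log2 difference in Slc1a2 was 0.26 (95% interval -0.47 to 0.99, limma adjusted p = 0.871), and without Scr replicate 5 it turned to -0.07. Slc1a3 (ENSMUSG00000005360, chromosome 15, 8634124 to 8710764, minus strand) stood at 13.05 and 12.83 under Scr, then 12.96 and 12.88 under P155. Its 4 libraries spanned 0.22 log2 units with the P155 libraries between the Scr libraries, and the difference was -0.02 (95% interval -0.44 to 0.39, limma adjusted p = 0.988). Slc1a2 exceeded Slc1a3 per kb of exon 8.14-fold and 6.03-fold under Scr, then 8.66-fold and 8.39-fold under P155. Slc1a3 overlaps the provisional gene Gm37310 on the same strand, which stood at 5.08 to 6.38, so reads there are uncertain.

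Windows of 300 bases around the annotated start of both transporter genes, from RefSeq (GRCm38.p6, 250 bases before and 50 after the start), are shown because the genes share a function and differed in level several-fold. Capitals mark the letters searched on both strands: TTGGC, the core recognised by NFI factors, ACAAAG and ACAAT, cores bound by SOX factors, and TATAAA, the TATA box.
Slc1a2, chr2:102706188-102706487, plus strand: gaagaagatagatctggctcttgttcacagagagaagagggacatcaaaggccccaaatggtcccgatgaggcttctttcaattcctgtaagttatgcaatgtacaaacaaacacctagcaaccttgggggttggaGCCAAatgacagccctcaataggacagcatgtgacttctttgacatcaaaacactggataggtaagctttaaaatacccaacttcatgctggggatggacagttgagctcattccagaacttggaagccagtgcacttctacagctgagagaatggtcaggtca
Slc1a3, chr15:8710758-8711057, minus strand: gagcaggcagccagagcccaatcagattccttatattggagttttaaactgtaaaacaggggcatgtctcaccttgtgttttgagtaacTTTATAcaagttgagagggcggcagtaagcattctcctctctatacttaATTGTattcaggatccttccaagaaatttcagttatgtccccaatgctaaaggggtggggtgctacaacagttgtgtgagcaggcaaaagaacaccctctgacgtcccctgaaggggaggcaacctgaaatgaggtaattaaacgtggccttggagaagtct
The Slc1a2 window held 1 TTGGC match, on the minus strand, at base -114 from the start, and the window itself lies inside the gene model of GENCODE M21, whose outermost start is upstream. In the Slc1a3 window ACAAT stood at base -112 and TATAAA at base -161, both on the strand opposite to the gene and so printed as their reverse complements. Of 32851 such windows, 46.7% held TTGGC, 18.7% ACAAAG, 31% ACAAT and 13.6% TATAAA, so these matches are common and are given as a description.

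Other genes of glutamate, GABA and potassium handling lay higher in P155 more often than lower, without passing the test. Of 17 genes tested, 14 were higher and 3 lower on average, with a median log2 difference of 0.28, and limma called 0 after adjustment and 2 higher at an unadjusted p under 0.05 (background 1.17% higher). Glul, which encodes glutamine synthetase, stood at 16.32 and 16.34 under Scr, then 16.47 and 16.50 under P155, a difference of 0.15 (95% interval -0.29 to 0.59). Kcnj10, the inward rectifier Kir4.1 that buffers potassium, stood at 15.44 and 14.93 under Scr, then 15.54 and 15.39 under P155. Slc4a4, a sodium bicarbonate cotransporter gene, had 14.27 and 13.61 under Scr, then 14.24 and 14.05 under P155. As for Slc1a2, Scr replicate 5 was the lowest library for Kcnj10 and Slc4a4, and it was the lowest in 13 of the 17 genes. Without that library 12 were higher and 5 lower, with a median of 0.10. The smallest p of the list belonged to the glutamine transporter gene Slc38a3, at 11.59 and 10.90 under Scr, then 12.24 and 11.90 under P155. Its groups did not overlap, and the difference of 0.82 (95% interval 0.05 to 1.59) had limma adjusted p = 0.861.

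Water and ion transport are represented by Aqp4, the water channel of the endfoot, and Atp1b2, the beta 2 subunit of the sodium pump, an adhesion molecule on glia. Aqp4 (ENSMUSG00000024411, chromosome 18, 15389496 to 15410982, minus strand) stood at 15.73 and 15.27 under Scr, then 15.38 and 15.30 under P155. Scr replicate 4 was the high library and the P155 libraries lay between the Scr libraries. The log2 difference in Aqp4 was -0.16 (95% interval -0.73 to 0.41, limma adjusted p = 0.896), and without Scr replicate 4 it turned to 0.07. Atp1b2 (ENSMUSG00000041329, chromosome 11, 69599736 to 69605942, minus strand) was the steadiest member, at 16.17 and 16.08 under Scr, then 16.14 and 16.02 under P155. Its libraries spanned 0.15 log2 units, and the difference was -0.04 (95% interval -0.49 to 0.41, limma adjusted p = 0.977). An antisense gene annotated over Aqp4 is not analysed here, and the labels do not say whether counting used strand.

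Among other genes of endfoot and water handling, some lay close in all libraries and others spread widely. Mlc1 and Hepacam, partners in the control of astrocyte volume, stood at 13.69 and 13.65 and at 13.12 and 13.15 under Scr, and at 13.71 and 13.74 and 13.21 and 13.13 under P155. The log2 differences in Mlc1 and Hepacam were 0.06 (95% interval -0.31 to 0.43) and 0.03 (95% interval -0.33 to 0.40). Aqp1, a water channel gene named after its values were seen, spread over 2.09 log2 units, at 11.34 and 10.39 under Scr, then 9.25 and 10.83 under P155, with P155 replicate 4 lowest. Of 14 endfoot and water genes, 9 were lower and 5 higher, with a median of -0.05 and 0 calls by limma, also at an unadjusted p under 0.05. The smallest p in that list was for the cation channel gene Trpv4, at 8.25 and 8.82 under Scr, then 8.12 and 7.19 under P155 (limma adjusted p = 0.861). In the sodium pump list, 8 of the 11 genes tested were lower and 3 higher, with a median of -0.20 and 0 calls. Scr replicate 5 was the highest library for 7 of the 11. Without it 6 were lower and 5 higher, with a median of -0.08. Fxyd2, a regulator of the pump, had the smallest p there, at 10.98 and 11.13 under Scr, then 9.44 and 10.65 under P155 (limma adjusted p = 0.861), with P155 replicate 4 the low library.

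Astrocytes are coupled by connexin 43, encoded by Gja1, and by Cx30, encoded by Gjb6. Gja1 (ENSMUSG00000050953, chromosome 10, 56377330 to 56402513, plus strand) stood at 14.16 and 14.09 under Scr, then 12.64 and 14.22 under P155. P155 replicate 4 stood alone, 1.45 log2 units or 2.73-fold under the lowest of the other three libraries, which spanned 0.13. The log2 difference in Gja1 was -0.70 (95% interval -2.11 to 0.72, limma adjusted p = 0.861), and without P155 replicate 4 it turned to 0.09. Without P155 replicate 5 it was -1.49. Behind these levels stood 7567 reads of Gja1 in P155 replicate 4, which has the depth of the Scr libraries, where 22475 and 20675 were counted. The shallower P155 replicate 5 gave 11292. Gjb6 (ENSMUSG00000040055, chromosome 14, 57123303 to 57133611, minus strand) stood at 12 and 12.57 under Scr, then 12.16 and 12.50 under P155. Here the replicates numbered 5 were high in both groups, and the difference was 0.04 (95% interval -0.64 to 0.73, limma adjusted p = 0.986). The ratio of Gja1 to Gjb6 per kb of exon was 1.17 and 0.746 under Scr, then 0.364 and 0.856 under P155.

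Genes with a single library standing low, as for Gja1, were counted among those with a mean level of at least 10. The rule was not among the planned comparisons and has the form of the Gja1 pattern. Its counts are therefore a description and give no measure of chance. Of 8892 genes with a mean level of at least 10, 17 (0.191%) had P155 replicate 4 more than 1 log2 unit below the other libraries while those lay within 0.5 of each other. The numbers for the other libraries were 13 and 98 under Scr and 26 for the second P155 library, and Gja1 was the one member among them. Of the 6 genes compared on either side of Gja1, all protein-coding and above a minimum mean level, none stood as low in that library. Relative to the mean of the other libraries, P155 replicate 4 stood at -0.10 for Man1a, -0.08 for Tbc1d32 and 0.03 for Msl3l2 on one side. On the other it stood at -0.25 for Hsf2, 0.33 for Serinc1 and -0.62 for Pkib, against -1.52 for Gja1. For Pkib the high library was P155 replicate 5, at 9.46 beside 7.89 in P155 replicate 4 and 7.85 and 8.24 under Scr. Fibroblasts also use connexin 43, and most fibroblast and mural cell markers were lower on average in P155. In that list 11 of 13 genes were lower, none was at 0, and the summed normalized reads were 85150 to 94434 in Scr and 59181 to 68617 in P155, lowest in P155 replicate 4. Collagen genes make up much of that sum, and P155 replicate 4 was the lowest library for 6 of the 13 genes and P155 replicate 5 for 5. The median deviation over the list was 0.03 in P155 replicate 4 and -0.11 in P155 replicate 5. Col1a1, a collagen gene of that list, stood at 14.50 and 14.12 under Scr, then 13.16 and 13.58 under P155. Its difference was -0.94 (95% interval -1.55 to -0.33, limma adjusted p = 0.861), and the authors' deposited table gave it an FDR of 0.00837. Ependymal markers, 8 of 12 of them lower and none at 0, summed to 4343 and 4504 in Scr and 4066 and 4060 in P155, with Foxj1, the regulator of motile cilia, between 10.97 and 11.02 in all libraries. Their part in the Gja1 values was not tested.

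The start windows of the connexin genes are shown because their transcripts parted in P155 replicate 4. None of the letters searched above was found in them, so no base is in capitals, which says only that these letters are not in these windows.
Gja1, chr10:56377050-56377349, plus strand: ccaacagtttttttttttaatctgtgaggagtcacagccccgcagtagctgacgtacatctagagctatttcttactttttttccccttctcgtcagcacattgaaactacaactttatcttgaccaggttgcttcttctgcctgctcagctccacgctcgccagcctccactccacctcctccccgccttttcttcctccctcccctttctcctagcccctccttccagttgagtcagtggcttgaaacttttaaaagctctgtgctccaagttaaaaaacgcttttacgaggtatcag
Gjb6, chr14:57133562-57133861, minus strand: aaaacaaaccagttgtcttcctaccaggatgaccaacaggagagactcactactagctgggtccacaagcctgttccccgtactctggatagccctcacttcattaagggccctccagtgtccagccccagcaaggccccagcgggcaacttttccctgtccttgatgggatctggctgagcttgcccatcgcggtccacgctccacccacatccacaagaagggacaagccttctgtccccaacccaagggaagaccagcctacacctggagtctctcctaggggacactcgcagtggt
The Gja1 window had a GC content of 47.7% and the Gjb6 window 57.3%.

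**Figure D2:**
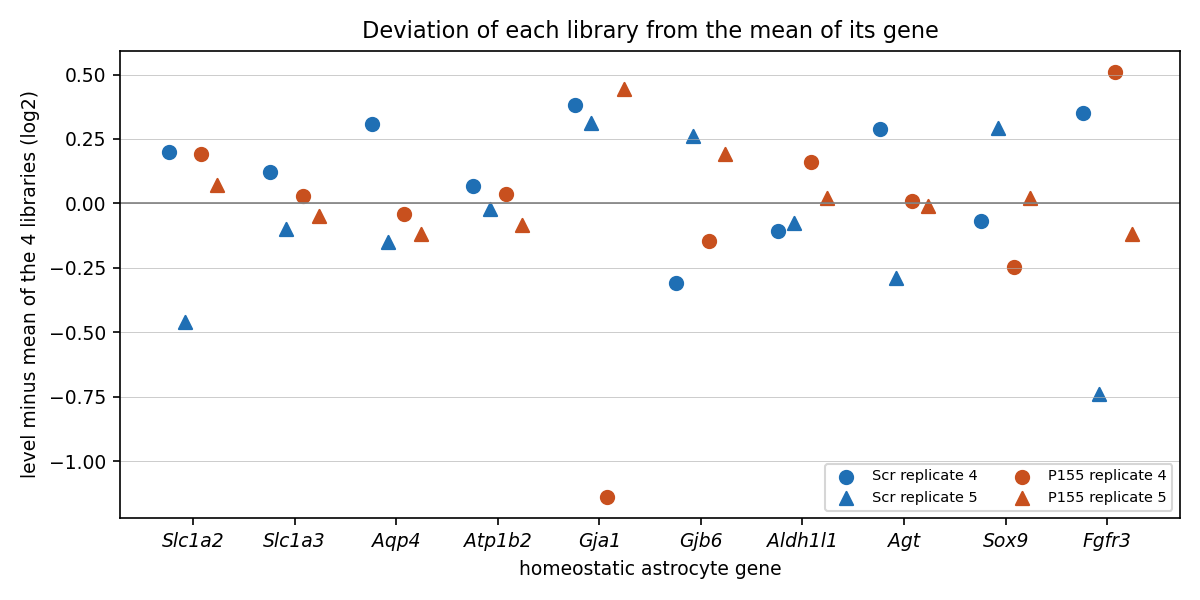
Level of each library minus the mean of its gene over the 4 libraries, in log2 units, with Scr in blue, P155 in orange, circles for libraries numbered 4 and triangles for those numbered 5. P155 replicate 4 lies far below the rest for Gja1, and Scr replicate 5 is the lowest library for Slc1a2, Slc1a3, Aqp4, Agt and Fgfr3.

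Other connexin and junction genes were divided, with 8 of 13 lower and 5 higher, a median of -0.04 and 0 calls by limma, also at an unadjusted p under 0.05. Gjb2, encoding connexin 26 of astrocytes and meninges, stood at 10.32 and 10.75 under Scr, then 10.49 and 10.48 under P155. The log2 difference in Gjb2 was -0.05 (95% interval -0.60 to 0.51).

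Aldh1l1, which encodes a folate enzyme used widely as a marker of all astrocytes, and Agt, which encodes angiotensinogen, the secreted precursor of angiotensin peptides, stand for metabolism and secretion. Aldh1l1 (ENSMUSG00000030088, chromosome 6, 90486427 to 90600203, plus strand) stood at 11.77 and 11.80 under Scr, then 12.04 and 11.90 under P155. Both P155 libraries lay above both Scr libraries by a small margin, the one such member, and the log2 difference was 0.18 (95% interval -0.21 to 0.57, limma adjusted p = 0.861). Leaving out each library in turn kept the Aldh1l1 difference between 0.11 and 0.25. Agt (ENSMUSG00000031980, chromosome 8, 124556534 to 124569706, minus strand) stood at 13.76 and 13.18 under Scr, then 13.48 and 13.46 under P155. The P155 libraries were nearly equal and lay between the Scr libraries, and the difference was 0.01 (95% interval -0.62 to 0.63, limma adjusted p = 1). Without Scr replicate 5 the Agt difference was -0.29 and without Scr replicate 4 it was 0.30.

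Among the member windows searched, the Agt window is shown as the one with TATAAA on the gene's own strand, with TTGGC at bases -15 and 20.
Agt, chr8:124569657-124569956, minus strand: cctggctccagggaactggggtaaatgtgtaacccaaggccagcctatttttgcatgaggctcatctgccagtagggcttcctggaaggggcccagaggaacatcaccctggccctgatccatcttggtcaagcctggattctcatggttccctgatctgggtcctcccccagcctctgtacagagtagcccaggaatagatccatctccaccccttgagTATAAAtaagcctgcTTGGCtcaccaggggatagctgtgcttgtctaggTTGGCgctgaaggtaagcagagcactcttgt
RefSeq windows were matched for 7 of the 10 members, and no window was sought for Aqp4.

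Neighbours of these genes in their pathways also stayed short of the threshold. Of 16 one-carbon genes, 8 were lower and 8 higher, with a median of 0.02, and limma called 0 after adjustment and 1 higher at an unadjusted p under 0.05, beside 1.17% of all genes. That gene, Ftcd, had a level of 0 under Scr, in either library, and of 3.24 in each P155 library, near the detection limit. Of 14 renin-angiotensin genes, 5 were lower and 9 higher, with a median of 0.17 and 0 calls, also at an unadjusted p under 0.05. Without Scr replicate 5, 7 of these were lower and 7 higher, with a median of 0.01. The split was also 7 and 7 without P155 replicate 4. Ace, encoding the enzyme that makes angiotensin II, stood at 10.65 and 10.17 under Scr, then 10.93 and 10.35 under P155. Anpep, an aminopeptidase gene that is also expressed by myeloid cells, had the smallest p there, at 10.22 and 11.10 under Scr, then 10.27 and 9.54 under P155 (limma adjusted p = 0.861).

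Sox9 is a transcription factor that sets and keeps astrocyte identity, and Fgfr3 is a receptor tyrosine kinase of astrocytes and their precursors. Sox9 (ENSMUSG00000000567, chromosome 11, 112782224 to 112787760, plus strand) stood at 10.74 and 11.10 under Scr, then 10.56 and 10.83 under P155. Replicate 5 was the higher library in each group, the groups overlapped, and the log2 difference was -0.22 (95% interval -0.79 to 0.34, limma adjusted p = 0.864). Fgfr3 (ENSMUSG00000054252, chromosome 5, 33721674 to 33737068, plus strand) stood at 12.47 and 11.38 under Scr, then 12.63 and 12 under P155. It had the widest gap within Scr of any member, 1.09, with Scr replicate 5 low, and the difference was 0.39 (95% interval -0.76 to 1.54, limma adjusted p = 0.877). Without Scr replicate 5 the Fgfr3 difference turned to -0.16, and without Scr replicate 4 it was 0.94. G630022F23Rik, a provisional gene annotated on the other strand and overlapping Fgfr3, stood at 6.06 to 7.30.

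Glial transcription genes lay lower on average in 11 of 16 tested and higher in 5, with a median of -0.20 and 0 calls by limma, also at an unadjusted p under 0.05. Scr replicate 5 was the highest library for 10 of the 16 and P155 replicate 4 the lowest for 8, and without Scr replicate 5 the split was 9 lower and 7 higher, with a median of -0.14. Sox2, a factor of neural precursors and astrocytes, stood at 11.10 and 11.50 under Scr, then 10.72 and 11.17 under P155, the same order of libraries within each group as Sox9. Nfia, which starts astrocyte differentiation, stood at 11.67 and 12.10 under Scr, then 11.76 and 12.04 under P155. Id3, a target of BMP signalling, stood at 11.93 and 12.61 under Scr, then 11.63 and 11.77 under P155, without overlap, a difference of -0.57 (95% interval -1.28 to 0.14, limma adjusted p = 0.861). Hes1, a target of Notch signalling, had the smallest p of the list, at 8.55 and 9.11 under Scr, then 7.79 and 8.36 under P155 (limma adjusted p = 0.861). Of 17 FGF pathway genes, 13 were higher and 4 lower, with a median of 0.15 and 0 calls, also at an unadjusted p under 0.05. Without Scr replicate 5, 10 of these were higher and 7 lower, with a median of 0.08. Without Scr replicate 4, 11 were higher and 6 lower, with a median of 0.10. Fgfr1, the receptor of many neural cells, stood between 12.86 and 13.05 in all libraries, and the ligand gene Fgf1 at 14.04 and 13.68 under Scr, then 14.01 and 14.00 under P155. Fgfr4 had the smallest p of the list, at 6.26 and 7.05 under Scr, then 6.06 and 4.97 under P155 (limma adjusted p = 0.861). The ligand gene Fgf2 and the feedback inhibitor gene Spry1, named after their values were seen, were low in Scr replicate 4 alone. They stood at 6.37 and 3.73 there and at 10.35 to 11.05 and 9.21 to 9.59 in the other libraries. Besides sharing a pathway, both genes lie on chromosome 3, Fgf2 at 37348346 to 37410108 and Spry1 at 37639947 to 37644598. The part of pathway or position in these low values was not tested.

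**Figure D3:**
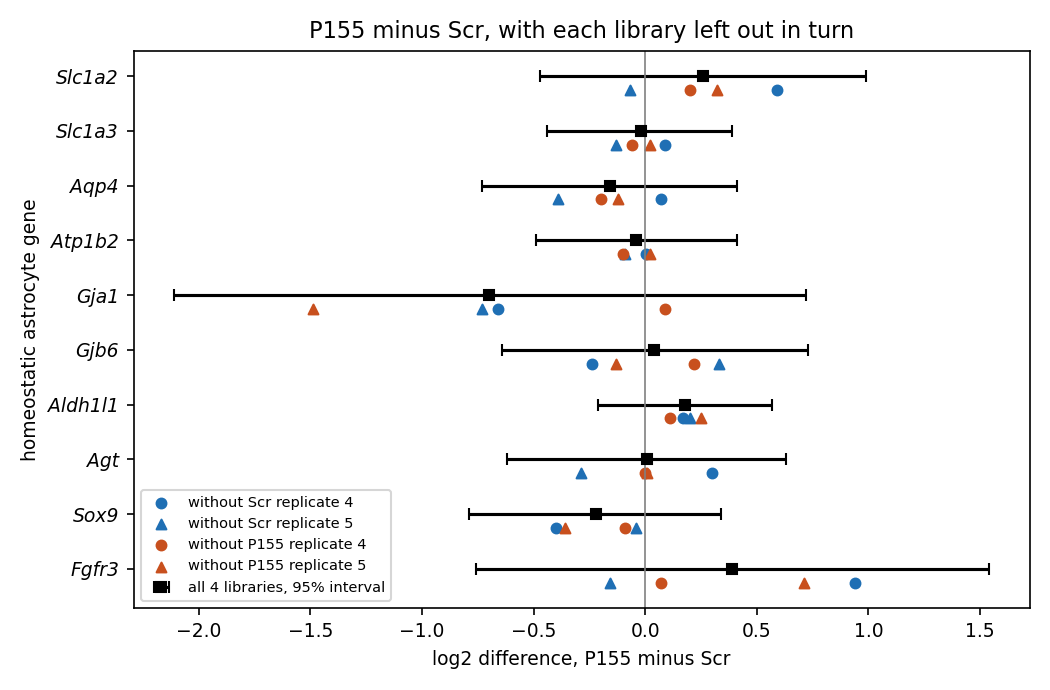
Log2 difference, P155 minus Scr, of each homeostatic astrocyte gene with all 4 libraries (black squares, bars are 95% intervals from limma) and with 1 library left out (blue for a missing Scr library, orange for a missing P155 library). All intervals span 0, and the Gja1 difference moves from -0.70 to 0.09 without P155 replicate 4.

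Among the members, the largest departures were those of single libraries. Scr replicate 5 was the lowest library for 5 members, Slc1a2, Slc1a3, Aqp4, Agt and Fgfr3, and the highest for 2, Sox9 and Gjb6. Over the genes with a mean level of at least 10, as all members have, it was the lowest for 40.9% and the highest for 35%, so standing apart was common for this library. Set against the mean of the other libraries, Scr replicate 5 stood at -0.99 for Fgfr3, -0.61 for Slc1a2 and -0.39 for Agt, but at 0.42 for Gja1, 0.39 for Sox9 and 0.35 for Gjb6, where the value for Gja1 includes its low P155 library. This library also differed with exon length. Its median deviation from the other libraries was taken among genes with a mean level of at least 10. It was 0.17 over the 2223 genes with the shortest total exon length and -0.21 over the 2222 with the longest. The members do not all follow that order, since Slc1a2 with 13133 bases of exon was low, Gjb6 with 2674 bases was high and Agt with 1891 bases was low. The part of exon length in the members' values was not tested.

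Further astrocyte markers, none of them a member, also stayed short of the threshold. Of 26, 20 were higher and 6 lower in P155 on average, with a median log2 difference of 0.10, and limma called 0 after adjustment and 2 higher at an unadjusted p under 0.05, beside 1.17% of all genes. Gfap had a difference of 0.01 (95% interval -0.53 to 0.54). S100b, encoding a calcium-binding protein, stood at 15.31 and 15.70 under Scr, then 15.40 and 15.68 under P155, and Aldoc, encoding the brain aldolase, at 16.12 and 16.10 under Scr, then 16.20 and 16.18 under P155. Itih3 had the smallest p of the list, at 12.28 and 11.97 under Scr, then 12.79 and 12.56 under P155, a difference of 0.55 (95% interval 0.06 to 1.04, limma adjusted p = 0.861).

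Genes linked to reactive astrocytes lay lower in P155 on average, and their difference from the homeostatic members was not tested. Of 24, 20 were lower and 4 higher on average, with a median log2 difference of -0.44, and limma called 0 after adjustment and 5 lower at an unadjusted p under 0.05, beside 3.18% of all genes. Scr replicate 5 was the highest library for 16 of the 24 and P155 replicate 5 the lowest for 16, while the summed normalized reads were 316886 in Scr replicate 4 and 331089 in P155 replicate 4. Without Scr replicate 5, 18 were lower and 6 higher, with a median of -0.25. Lcn2, the acute phase gene lipocalin 2, stood at 12.25 and 13.18 under Scr, then 11.08 and 10.89 under P155, without overlap. Its difference was -1.73 (95% interval -2.63 to -0.83, limma adjusted p = 0.861), and the authors' deposited table gave it an FDR of 5.72e-06. Serpina3n, a protease inhibitor gene, stood at 14.59 and 14.94 under Scr, then 14.44 and 13.78 under P155. Vim, the filament gene vimentin, overlapped between groups, at 14.27 and 15 under Scr, then 14.28 and 14.57 under P155. Several genes of this list, Lcn2 among them, are also made by infiltrating myeloid cells, and markers of those cells also lay lower. All 12 monocyte and macrophage markers were lower, with a median of -0.98, none at 0, and summed normalized reads of 71611 to 119709 in Scr and 42425 to 60082 in P155. Without Scr replicate 5 their median was -0.61. Their part in the reactive list was not tested.

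Markers of other cells in the tissue gave medians on either side of 0. Neuron markers had a median log2 difference of 0.29 over 16 genes, with Snap25, a synaptic vesicle fusion gene, at 16.74 and 16.78 under Scr, then 17.03 and 16.86 under P155. Scr replicate 5 was the lowest library for 14 of the 16, and without it the median was 0.11. Oligodendrocyte markers had 0.10 over 13 genes, with Mbp, the myelin basic protein gene, at 16.69 and 16.02 under Scr, then 16.75 and 16.46 under P155. Precursor markers had -0.04 over 12 genes, with Pdgfra between 11.47 and 11.79. Microglia markers had -0.54 over 12 genes, with Tmem119 at 11.30 and 11.79 under Scr, then 11.38 and 11.33 under P155. Scr replicate 5 was the highest library for 11 of the 12 microglia markers, and without it the median was -0.35. The medians for T cell, B cell and endothelial markers were -0.81, -1.43 and -0.23. For all 12 T cell markers Scr replicate 5 was highest and P155 replicate 5 lowest, with summed normalized reads of 2690 in Scr replicate 4 and 2672 in P155 replicate 4. Without Scr replicate 5 the T cell, B cell and endothelial medians were -0.32, -0.97 and -0.30. Without P155 replicate 5 these medians were -0.48, -1.44 and -0.11, with 7 endothelial markers lower and 5 higher. Cd3e and Cldn5, defining markers of T cells and endothelium, had differences of -0.59 and -0.79 (limma adjusted p = 0.861 for each). For Ccr2, the receptor of inflammatory monocytes, the difference was -1.29, with the same limma adjusted p = 0.861. The authors' deposited table gave an FDR of 0.00132 for Ccr2 and 0.0227 for Cldn5.

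**Figure D4:**
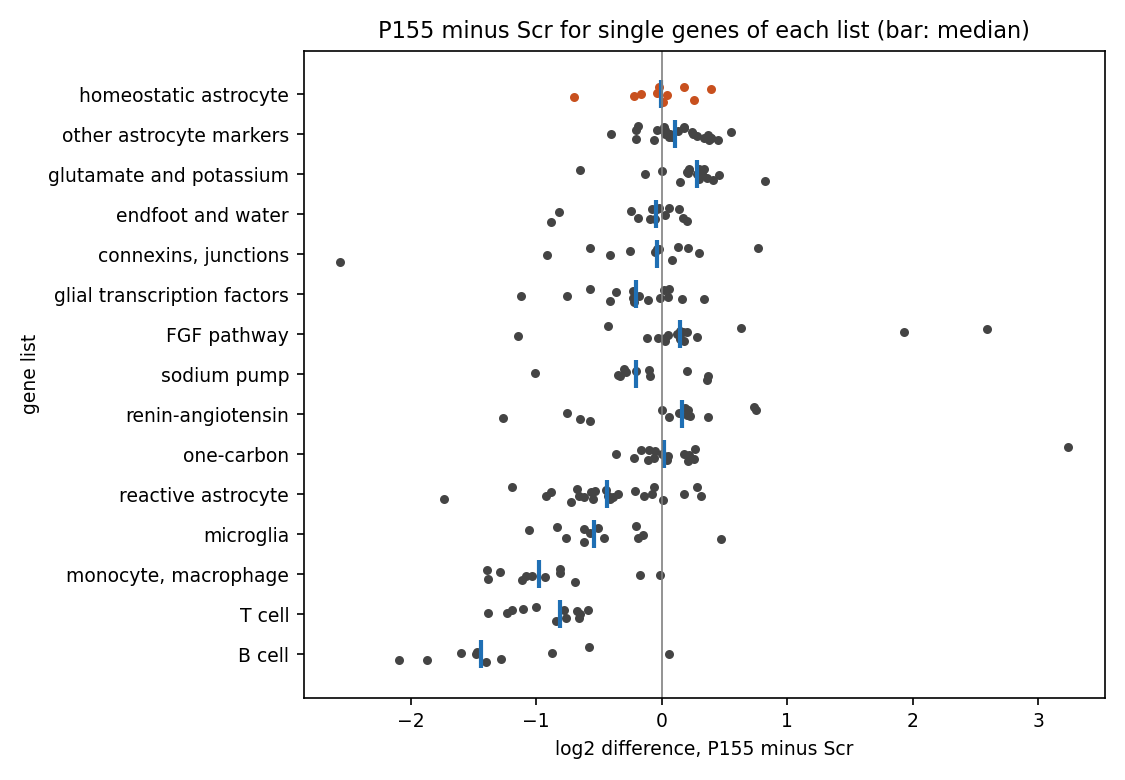
Log2 difference, P155 minus Scr, for every tested gene of each list (points, homeostatic astrocyte genes in orange) with the list median (blue bar). The homeostatic astrocyte median lies at -0.01, the reactive list at -0.44 and the B cell list at -1.43.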

How the data were processed

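The deposited table gives each gene a log2 value per library, which the authors made from size-factor normalized reads plus 1. Beside these stand their group means and fold change, also log2, and the deposited p-value and FDR, for which the table names no test. Per the submitters' processing notes, the build was mm10 and the tools included STAR 2.5.3a, bcl2fastq and DESeq2. No source used here gives the counter, annotation release or strand setting. With the log2 and the 1 undone, 100% of values were whole reads within 1e-06 once multiplied by size factors of 1.23 and 1.19 (Scr) and 1.19 and 0.592 (P155).

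A gene was tested if its normalized value reached 1 in 2 or more libraries, which left 27079. Limma 3.58.1 in R 4.3.3 was fitted on log2(value + 1) with a variance trend and two-sided tests, and p-values were adjusted by Benjamini-Hochberg across these genes. EdgeR, planned for a table of raw counts, was not used on log2 values. Fold changes on this scale understate changes of low genes. The code was tested on simulated data. The members and gene lists were chosen with earlier results of these data known, so list counts and medians are descriptions. Named genes were all members, companion genes set by name, a defining marker per other cell type and the gene with the smallest p of each companion list. Some genes under this rule are not reported here. Coordinates and exon lengths come from GENCODE M21, matched by 32168 identifiers. Alternatives were a replicate block, each library left out (genes tested kept fixed), library-size or TMM scaling, no filter or a minimum of 50, a pseudocount of 0.1, a robust prior and limma-voom on recovered reads.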

Additional observations from a re-analysis of the deposited data

How the results depend on the processing

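No gene passed adjusted p under 0.05 by limma under any of the 12 alternatives, with 782 to 3286 genes at an unadjusted p under 0.05, and limma-voom gave 0 after adjustment and 1072 unadjusted. Among 120 pairs of a member and an alternative, 12 reversed direction, all of them with a library left out. The adjusted p of members under alternatives ran from 0.411 to 1. Without 1 library, the log2 difference ran from -0.39 to 0.07 for Aqp4, 0.11 to 0.25 for Aldh1l1, -0.07 to 0.59 for Slc1a2, -0.13 to 0.09 for Slc1a3, -1.49 to 0.09 for Gja1, -0.24 to 0.33 for Gjb6, -0.16 to 0.94 for Fgfr3, -0.40 to -0.04 for Sox9, -0.10 to 0.02 for Atp1b2 and -0.29 to 0.30 for Agt. The median of the members ran from -0.11 to 0.08. The lone library of a group is then assumed to vary like the other group, and the cause of these moves was not tested. Under the other alternatives the members kept their direction, with Gja1 between -0.72 and -0.69.

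With the replicate block, 0 genes passed and 1195 had an unadjusted p under 0.05, and the member median stayed at -0.01. The number is not said to mark a shared animal or day, so the block is an alternative. Across 8892 genes, deviations of same-numbered libraries from their group means had r = 0.215, which with 2 pairs does not show pairing. With 2 libraries per group, each interval given shows the range of differences that the data leave possible. Leaving out libraries for the gene lists was chosen after seeing the data.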
